A study of Rattus norvegicus with 8 samples.

Results

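Transcripts of 9 nuclear receptors of the liver, Ppara, Rxra, Nr1i2, Nr1i3, Nr1h3, Hnf4a, Thrb, Esr1 and Rora, and of the aryl hydrocarbon receptor Ahr were examined, 10 genes among the 14218 that the array annotation names. Every probe set carrying the single symbol of a listed gene was taken, which gave 17 probe sets. A probe set is the group of short probes that reads out a transcript on an Affymetrix array, and it was counted as measured where its highest and lowest log2 values over the 8 arrays lay at least 0.05 apart. Liver RNA came from 4 HP diet-fed rats and 4 control diet-fed rats, all male Wistar rats of 8 weeks, with 1 array per rat. The HP diet held 1.2% phosphorus and the control diet 0.3%, both were built on the AIN-93G diet, and both were fed for 24 days. Rats are named below by diet and replicate number, and with 4 arrays for each diet the precision of every value is limited.

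Nuclear receptors are transcription factors that bind DNA and are switched by small fat-soluble molecules such as fatty acids, oxysterols, bile acids, steroids and thyroid hormone. Many of them bind as a pair with the retinoid X receptor to copies of the hexamer AGGTCA, and in the liver they set the genes of fat oxidation, lipid synthesis, bile acid production and drug clearance. Ahr is not a nuclear receptor by structure but works in the same manner, as a ligand-switched factor that induces drug-metabolising enzymes. The mRNA level of a receptor is not its activity, because ligands and coregulators decide how much of its target transcription takes place.

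Of the 17 probe sets, 9 were measured and stood for 6 genes, namely Nr1i2, Nr1i3, Nr1h3, Hnf4a, Thrb and Rora. An Hnf4a probe set was called higher in HP diet-fed rats by rank products (1.37-fold), and a Thrb probe set (0.784 times the control level) and the Rora probe set (0.878 times) were called lower. Rank products orders the probe sets within each of 16 HP-minus-control differences. It estimates a false discovery rate (FDR) from values permuted within each array, with calls here at an FDR under 0.05. The 1 of 9 probe sets called higher stood against 8.5% of all 4155 measured probe sets and 1.14% of all 31099 probe sets ranked. The 2 of 9 called lower stood against 12.1% of the measured and 1.62% of all. The moderated linear model of limma called 0 of the 9 at an adjusted p under 0.05, as it did 0% of the 4155 probe sets, and 1 of the 9 had an unadjusted p under 0.05, against 5.37% of measured probe sets higher and 7.29% lower at that level. The 9 differences had a median of -0.10 (log2) with 2 positive, against a median of -0.022 over all measured probe sets. The diets overlapped at all 9 probe sets. All HP diet-fed rats lay above all control diet-fed rats in 3.1% of all measured probe sets and below them in 4.07%.

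The calls of rank products rested on the ranking of all probe sets, most of which were nearly constant. With only the measured probe sets ranked, 0 of the 9 were called in either direction. Whether fewer cells of a type or less RNA per cell lay behind a lower value cannot be told apart in whole liver.

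**Figure D1:**
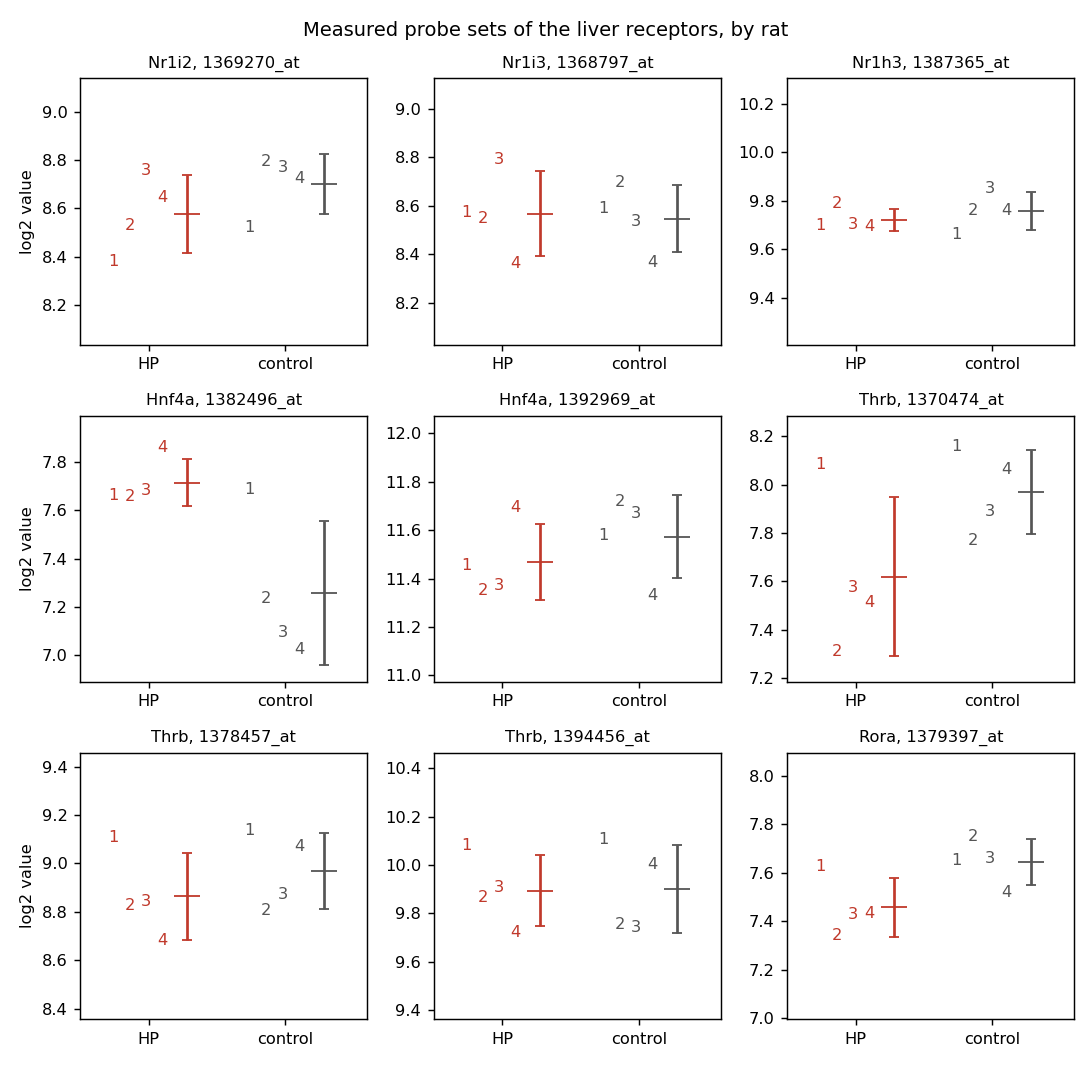
Log2 value of the 9 measured receptor probe sets in each rat (y axis), by diet (x axis); each digit is the replicate number of a rat at its value, and the horizontal and vertical lines are the mean and SD of 4 rats. Control rat 1 lay among the HP diet-fed rats at Hnf4a 1382496_at, and HP rat 1 lay among the control diet-fed rats at Thrb 1370474_at.

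Defining hepatocyte transcripts were bright. Alb, which encodes serum albumin, read 14.53, and the plasma protein genes Ttr, Serpina1 and Ahsg read 13.96, 13.81 and 13.78. Each spanned less than 0.05, so that these values give no measure of a difference between rats. Of 8 hepatocyte markers 4 were measured. Rank products called 2 of them lower, Cps1 of the urea cycle (difference -0.27) and Tat of tyrosine breakdown (-0.81). The other 2, Apoa1 and Cyp2e1, differed by 0.021 and 0.018 and were not called. The paper also reports Cps1 and Tat as lower, among its genes of amino acid metabolism. The summed log2 level of the 4 ran between 46.3 and 47.3 in HP diet-fed rats and between 47.5 and 48.3 in control diet-fed rats. At Cps1 and at Tat every HP diet-fed rat lay below every control diet-fed rat. The diets overlapped at Apoa1, at 13.09 to 13.23 on the HP diet and 12.96 to 13.21 on the control diet. They also overlapped at Cyp2e1, at 12.86 to 13.28 on the HP diet and 12.80 to 13.37 on the control diet. Of 9 sinusoidal endothelial markers 4 were measured and 2 were called higher, Stab2 and Kdr, with sums of 38.3 to 39.0 in HP diet-fed rats and 37.8 to 38.4 in control diet-fed rats. The 8 measured of 12 Kupffer cell markers and the 5 measured of 10 stellate cell markers held 0 calls by rank products, the sums overlapped between diets, and 0 of the 5 cholangiocyte and 7 lymphocyte markers were measured. Hbb, the 1 measured erythroid marker of 4, was called higher by rank products, with a difference of 0.24 (limma adjusted p = 0.454). The diets overlapped at Hbb, and control rat 2 was the highest of all rats, at 11.64. The part of these markers in the receptor values was not tested.

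Among the lipid sensors, the probe sets of Ppara and of Rxra, the shared partner of many receptors, carried no measured difference. Ppara is the fatty acid receptor that drives fat oxidation in fasting, and its single probe set, 1387278_at, read 6.24 in all 8 rats. Rxra 1369101_at read 6.95 in all 8. Over the 8 receptor probe sets below the span the values spanned between 0.00026 and 0.00075, and the largest difference between diets was 0.00036 in size. FARMS, the summary that the authors used, leaves a probe set almost constant where its probes share little variation over the arrays. Bright probe sets, such as that of Alb, were among these. Such a value neither shows that the transcript was absent nor that it did not change. Nr1h3, the liver X receptor alpha that senses oxysterols, was measured at 1387365_at. It read 9.70, 9.79, 9.70 and 9.70 in HP rats 1 to 4, and 9.66, 9.76, 9.85 and 9.76 in control rats 1 to 4. The values of the diets overlapped throughout, with a difference of -0.036 (95% interval -0.16 to 0.09; limma adjusted p = 0.795). This was the narrowest interval of the 9.

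The receptors of foreign compounds did not pass either test. Nr1i2, the pregnane X receptor, read 8.38, 8.53, 8.76 and 8.65 in HP rats 1 to 4, and 8.52, 8.80, 8.77 and 8.72 in control rats 1 to 4 at 1369270_at. HP rats 1 and 2 and control rat 1 were the 3 lowest. The difference was -0.12 (95% interval -0.34 to 0.09; limma adjusted p = 0.567), and the FDR of rank products was 0.152. Without HP rat 1 the difference was -0.059. Nr1i3, the constitutive androstane receptor, read 8.57, 8.55, 8.79 and 8.36 in HP rats 1 to 4, and 8.59, 8.70, 8.54 and 8.37 in control rats 1 to 4 at 1368797_at. Rat 4 was the lowest of either diet and the difference of 0.021 was far within the spread (SD 0.18 in HP diet-fed rats and 0.14 in control diet-fed rats, n = 4 each; limma adjusted p = 0.955). Its sign turned to -0.054 without HP rat 3 and to -0.039 without control rat 4. The probe sets of Ahr, 1369146_a_at and 1369147_at, read 6.34 and 6.15 in every rat and were below the span.

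Hnf4a, the factor that maintains hepatocyte identity and bile acid, lipoprotein and urea cycle genes, is transcribed from alternative promoters, and its 2 measured probe sets had differences of opposite sign. The RefSeq table of promoter windows, which runs from 250 bases before to 50 bases after a start, holds 2 starts for Hnf4a, 35616 bases apart on the plus strand of chromosome 3 of GRCr8, at chr3:172605970-172606269 and chr3:172641586-172641885. Both are printed because the array annotation does not tie either probe set to a start, and Thrb, at chr15:10461397-10461696 on the minus strand, is printed as the other receptor with several measured probe sets. Capitals mark each match to GTTAAT on either strand, which reads ATTAAC on the strand printed and is a half-site bound by the liver factor HNF1.
Hnf4a, first window: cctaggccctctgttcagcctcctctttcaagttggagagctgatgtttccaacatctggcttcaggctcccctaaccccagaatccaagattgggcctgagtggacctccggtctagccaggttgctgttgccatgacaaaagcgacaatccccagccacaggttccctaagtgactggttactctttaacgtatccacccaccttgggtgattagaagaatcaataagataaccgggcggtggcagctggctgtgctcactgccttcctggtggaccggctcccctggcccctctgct
Hnf4a, second window: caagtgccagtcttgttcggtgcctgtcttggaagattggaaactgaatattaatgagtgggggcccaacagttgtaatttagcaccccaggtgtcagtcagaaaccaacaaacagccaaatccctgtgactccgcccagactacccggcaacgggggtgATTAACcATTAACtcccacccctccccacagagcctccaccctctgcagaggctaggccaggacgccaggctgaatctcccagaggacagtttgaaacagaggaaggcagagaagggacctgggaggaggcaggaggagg
Thrb: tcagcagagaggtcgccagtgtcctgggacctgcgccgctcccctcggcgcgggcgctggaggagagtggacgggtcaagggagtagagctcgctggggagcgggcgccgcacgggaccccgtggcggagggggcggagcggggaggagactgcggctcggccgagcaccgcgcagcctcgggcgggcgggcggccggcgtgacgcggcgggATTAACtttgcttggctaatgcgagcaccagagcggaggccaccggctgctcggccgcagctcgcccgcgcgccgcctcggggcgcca
The second Hnf4a window held 2 matches set close together, the Thrb window 1 and the first Hnf4a window 0, where 7.45% of 33469 promoter windows hold at least 1. Only this exact hexamer was searched, so a count of 0 does not show that a window lacks a site for HNF1. The hexamer AGGTCA, on either strand, was in 0 of the 11 windows of the 10 receptors and in 16.2% of all windows; the motifs do not overlap each other, and a match or its absence is a description of these letters only.

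At Hnf4a 1382496_at the HP diet-fed rats read higher. The values were 7.66, 7.66, 7.68 and 7.86 in HP rats 1 to 4, and 7.69, 7.23, 7.09 and 7.02 in control rats 1 to 4. Control rat 1 lay among the HP diet-fed rats and the other control diet-fed rats lay below all of them. The means were 7.71 ± 0.10 in HP diet-fed rats and 7.26 ± 0.30 in control diet-fed rats (SD, n = 4 each), a difference of 0.45 with a standard error of 0.14, or 1.37-fold. Rank products gave an FDR of 0.0051 and limma an adjusted p of 0.32 (unadjusted p = 0.012). Without control rat 1 the difference was 0.60 and the limma adjusted p 0.0517, and without HP rat 4 it was 0.41 with an FDR of 0.0632 by rank products, no longer a call.

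At Hnf4a 1392969_at the rats read 11.46, 11.35, 11.37 and 11.70 on the HP diet in rats 1 to 4, and 11.58, 11.72, 11.67 and 11.33 on the control diet. The diets overlapped, rat 4 being the highest of the HP diet-fed rats and the lowest of the control diet-fed rats. The difference was -0.10 (95% interval -0.33 to 0.13; limma adjusted p = 0.662). The remaining Hnf4a probe set, 1369289_at, read 7.29 in every rat and was below the span.

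The response of the measured Hnf4a probe sets was then compared within each rat. Subtracting 1392969_at from 1382496_at left values between -3.84 and -3.69 in the 4 HP diet-fed rats and between -4.57 and -3.89 in the 4 control diet-fed rats, with no overlap; the values themselves hold the unequal brightness of the probes and were read for their change only. That change was 0.56 on the log2 scale, with p = 0.0286 in a two-sided exact permutation test, the smallest p that 4 against 4 rats allow, and 0.0571 after Benjamini-Hochberg adjustment over the 4 pairs of probe sets tested. Over the 8 rats Pearson's r between the probe sets was -0.032 (exact permutation p = 0.954) and Spearman's rho 0.286 (exact permutation p = 0.501), and r was -0.295 without the 2 rats farthest from the median. With the mean of each diet removed r was 0.378, given as a description. The mean of both probe sets, an analysis chosen after the data were seen, gave a difference of 0.17 (standard error 0.10; limma adjusted p = 0.492).

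Thrb encodes the thyroid hormone receptor beta, the main thyroid hormone receptor of the liver. Its 3 measured probe sets had differences of one sign but of unequal size. Thrb 1370474_at read 8.08, 7.31, 7.58 and 7.51 in HP rats 1 to 4, and 8.16, 7.77, 7.89 and 8.06 in control rats 1 to 4. HP rats 2 to 4 lay below every control diet-fed rat, and HP rat 1 lay above 3 of them. The means were 7.62 ± 0.33 in HP diet-fed rats and 7.97 ± 0.17 in control diet-fed rats (SD, n = 4 each), a difference of -0.35 with a standard error of 0.16, or 0.784 times the control level. Rank products gave an FDR of 0.0144 and limma an adjusted p of 0.409. The difference was -0.50 without HP rat 1, and without control rats 1 to 4 in turn the FDR was 0.0757, 0.0528, 0.0681 and 0.0629, so that the call of rank products was lost without any of them.

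Thrb 1378457_at read 9.11, 8.83, 8.84 and 8.68 in HP rats 1 to 4, and 9.13, 8.80, 8.87 and 9.07 in control rats 1 to 4, a difference of -0.11 (limma adjusted p = 0.680). Thrb 1394456_at read 10.08, 9.87, 9.91 and 9.72 in HP rats 1 to 4, and 10.11, 9.75, 9.74 and 10.001 in control rats 1 to 4, a difference of -0.0070 (95% interval -0.24 to 0.23; limma adjusted p = 0.986). Rat 1 was the highest of either diet at both, and the diets overlapped. The sign of 1394456_at was not settled, since it turned to 0.013 with each array centred on the median of its measured probe sets and to 0.00191 after quantile normalization. The remaining Thrb probe set, 1387983_at, read 6.37 in every rat and was below the span.

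Of the 3 pairs of Thrb probe sets, 2 were correlated across rats after adjustment. Between 1378457_at and 1394456_at Pearson's r was 0.916 over the 8 rats (exact permutation p = 0.0034, 0.0136 after adjustment over 4 pairs) and Spearman's rho 0.857 (exact permutation p = 0.0107, 0.0214 adjusted), and r was 0.792 without the 2 rats farthest from the median. Between 1370474_at and 1378457_at r was 0.848 (exact permutation p = 0.0133, 0.0266 adjusted) and rho 0.881 (exact permutation p = 0.00724, 0.0214 adjusted), with r of 0.918 without the 2 rats. Between 1370474_at and 1394456_at r was 0.631 (exact permutation p = 0.100, 0.133 adjusted) and rho 0.714 (exact permutation p = 0.0576, 0.0768 adjusted), with r of 0.658 without the 2 rats. With the mean of each diet removed, r of the 3 pairs in this order was 0.967, 0.858 and 0.777. All values of a rat come from the same array, which such correlations share.

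The response of 1370474_at was then set against the other probe sets within each rat. Against 1394456_at its change with the diet was -0.34, with values between -2.55 and -1.995 in HP diet-fed rats and between -1.98 and -1.85 in control diet-fed rats (exact permutation p = 0.0286, 0.0571 adjusted). Against 1378457_at it was -0.24, and for 1378457_at against 1394456_at it was -0.099 (exact permutation p = 0.0571 for each, before and after adjustment). Of the 4 pairs of both genes 0 passed after adjustment and 2 had an unadjusted exact permutation p under 0.05. Without HP rat 1 the 3 Thrb pairs had an adjusted exact permutation p of 0.0381. The mean of the 3 probe sets, chosen after the data were seen, differed by -0.15 (standard error 0.12; limma adjusted p = 0.580).

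**Figure D2:**
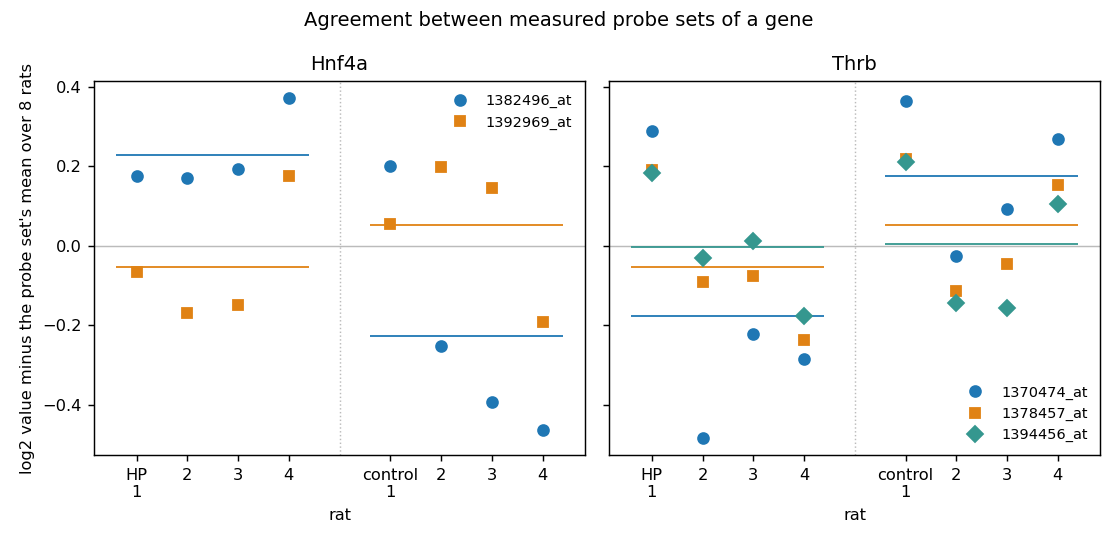
Log2 value of each measured probe set minus its own mean over the 8 rats (y axis) by rat (x axis), HP diet-fed rats left of the dotted line and control diet-fed rats right of it, for Hnf4a and Thrb; horizontal lines are the means of a diet. The diet means of the Hnf4a probe sets lie on opposite sides of 0, with differences of 0.45 and -0.10, while HP rat 4, control rat 1 and control rat 4 each lie on a single side at both; the 3 Thrb probe sets share a pattern in which 1370474_at differs most, by -0.35.

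Over all genes, differences of opposite sign within a gene, as at Hnf4a, were the less common outcome. Of 398 genes with 2 or more measured probe sets, 323 (81.2%) had differences of a single sign, as did 55 of the 70 genes with 3 or more (78.6%). The 608 pairs of probe sets of a gene had a median Pearson's r of 0.866 over the 8 rats, with quartiles of 0.707 and 0.947. The Hnf4a pair at -0.032 was below the lower quartile, as was the Thrb pair at 0.631.

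Of the remaining hormone receptors and the clock, only Rora was measured. Rora, the orphan receptor that activates the clock gene Bmal1, read 7.63, 7.34, 7.43 and 7.43 in HP rats 1 to 4, and 7.65, 7.75, 7.66 and 7.52 in control rats 1 to 4 at 1379397_at. HP rats 2 to 4 lay below every control diet-fed rat, and HP rat 1 lay above control rat 4. The means were 7.46 ± 0.12 in HP diet-fed rats and 7.64 ± 0.09 in control diet-fed rats (SD, n = 4 each), a difference of -0.19 with a standard error of 0.09, or 0.878 times the control level. Rank products gave an FDR of 0.0394 and limma an adjusted p of 0.416. The call of rank products was kept without HP rat 1 and lost without any other rat, with an FDR between 0.0527 and 0.177. Rora 1380478_at read 6.28, and Esr1 1387704_at, for the estrogen receptor alpha, read 6.02 in every rat, below the span.

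The named probe sets whose pattern over the 8 rats was most like the called ones were sought among 3298 measured probe sets, as a description without a test. For Hnf4a 1382496_at these were Gde1 (Pearson's r = 0.979), Cpt1a (0.967) and Pex11a (0.958), and the last 2 stand on the list of Ppara targets below. Control rat 1, the control diet-fed rat with the highest Hnf4a value there, was the highest of its diet at Cpt1a (12.13) and at Pex11a (9.71), genes that were chosen for this likeness. For Thrb 1370474_at they were Akap13 (0.994), Dhx9 (0.964) and Brd10 (0.963), and for Rora Ddx3x-ps1 (0.950), Alkbh5 (0.944) and Ranbp2 (0.928). Ddx3x-ps1 is named as a pseudogene, and its probes may also read the parent gene.

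Among 39 other nuclear receptors 33 had a named probe set and 11 were measured, with a median difference of -0.023. Of the 11, 9.09% were called higher and 27.3% lower by rank products, against 8.48% and 9.94% of the 2808 measured named genes. Rank products called Nr1h4, the bile acid receptor FXR, higher, at 9.60 ± 0.20 in HP diet-fed rats and 9.41 ± 0.10 in control diet-fed rats (SD, n = 4 each; FDR 0.0413), and this call was kept without control rat 3 and lost without any other rat. It called 3 lower, namely Nr0b2, the repressor SHP that FXR induces (difference -0.28, FDR 0.0146), Nr1d1, the clock repressor Rev-erb alpha (-0.20, FDR 0.0354), and Rarb, a retinoic acid receptor (-0.27, FDR 0.0244). The standard errors of Nr0b2 and Nr1d1, 0.43 and 0.36, were larger than their differences, and without HP rat 1 the differences turned to 0.023 and 0.042. Their limma adjusted p was 0.796 and 0.830, and those of Nr1h4 and Rarb were 0.46 each. Nr1h4 stood at 0.091 without HP rat 4 and Rarb at -0.17 without HP rat 2. The count of 3 was 1 without HP rat 1, HP rat 2 or control rat 1, 5 without HP rat 3, and 0 without control rat 2 or 3.

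**Figure D3:**
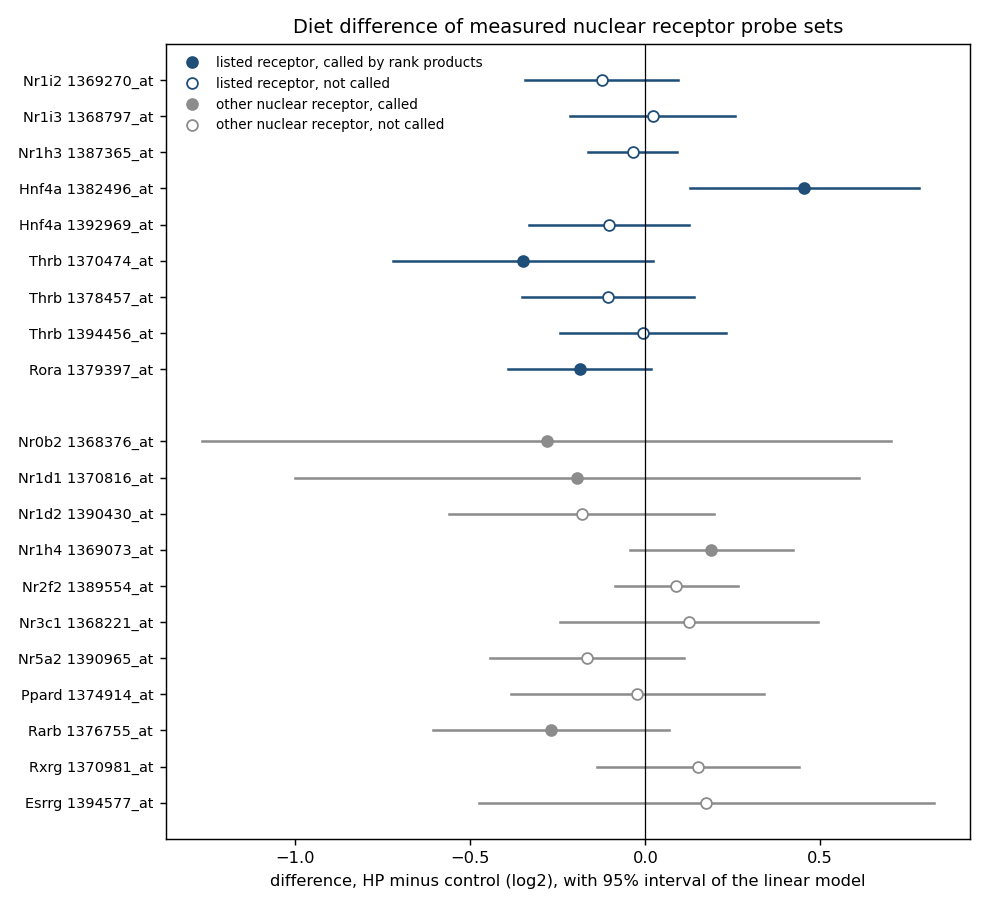
Difference HP minus control (log2, x axis) with the 95% interval of the linear model for each measured probe set of the listed receptors (top) and of other nuclear receptors (bottom); filled points were called by rank products. The interval of Hnf4a 1382496_at, 0.13 to 0.78, is the only one of the listed receptors that leaves out 0, and limma called none after adjustment.

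Of 19 coregulators 7 were measured. Rank products called 14.3% of the 7 higher and 28.6% lower, against 8.48% and 9.94% of all measured named genes. Ppargc1a, the coactivator PGC-1 alpha that is raised in fasting, was called higher by rank products (difference 0.28, standard error 0.19, FDR 0.0279). Its relative Ppargc1b (-0.29, standard error 0.21, FDR 0.0326) and Lpin1, which acts with PGC-1 alpha and Ppara (-0.50, standard error 0.36, FDR 0.0103), were called lower, and limma gave adjusted p of 0.527, 0.553 and 0.552 for the 3. Ppargc1a stood at 0.13 without HP rat 3, Ppargc1b at -0.13 without HP rat 1 and -0.47 without HP rat 3, and Lpin1 at -0.12 without HP rat 4 and -0.79 without HP rat 3. The call higher was kept without HP rat 4, control rat 1 or control rat 4, and the calls lower were 1 without HP rat 1, HP rat 2, HP rat 4 or control rat 4 and 0 without control rat 1, 2 or 3. Of 6 Ahr partners 2 were measured and 0 called by either method, with differences of -0.13 at the chaperone gene Hsp90ab1 and -0.083 at Ptges3.

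The measured targets of a receptor need not follow its own probe set, and they were counted by list. Of 31 Ppara targets 25 were measured, 12 were called higher and 0 lower by rank products, and all 25 differences were positive with a median of 0.17. Over all 2808 measured named genes, 238 (8.48%) were called higher, 279 (9.94%) lower, 1271 had a positive difference and the median was -0.013. In 10 of the 25, all HP diet-fed rats lay above all control diet-fed rats, against 101 of the 2808. Acot1, an acyl-CoA thioesterase, read 7.13, 8.31, 7.55 and 7.44 in HP rats 1 to 4, and 6.60, 5.90, 5.47 and 5.80 in control rats 1 to 4, with a difference of 1.66 and a limma adjusted p of 0.167. Fgf21, the liver hormone of fasting, read 7.95, 8.10, 8.28 and 8.75 in HP rats 1 to 4, and 7.72, 7.37, 6.98 and 7.31 in control rats 1 to 4, with a difference of 0.93 and a limma adjusted p of 0.210. The diets did not overlap at either gene. The other calls were Vnn1, Cyp4a3, Acot2, Pex11a, Ech1, Cyp4a1, Cpt1a, Angptl4, Pdk4 and Decr1, with differences between 0.27 and 0.62, and the limma adjusted p of the 12 ran from 0.167 to 0.749. Pdk4 had a standard error of 0.40 against a difference of 0.31, and leaving out control rat 3 gave 0.029, HP rat 3 0.13, HP rat 1 0.17, control rat 1 0.60 and HP rat 4 0.61. Without control rat 3 the differences of Cyp4a1 and Decr1 were 0.26 and 0.17, against 0.43 and 0.27 with all rats. With only measured probe sets ranked, 5 calls were left (Acot1, Fgf21, Vnn1, Cyp4a3 and Acot2). The list was drawn up with results of these rats known and is no independent evidence of its direction.

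Among the targets of the other receptors, those of Nr1h3 were mostly lower, and the rest split in direction or held few calls. Of 23 targets of Nr1i2 and Nr1i3 13 were measured, with a median of 0.031: Aldh1a1, a retinal dehydrogenase, was called higher (0.75, FDR 0.000964), and Cyp3a9, a cytochrome P450 (-0.49, FDR 0.00282), and Por, the electron donor of the cytochromes P450 (-0.53, FDR 0.00225), were called lower. The limma adjusted p of the 3 ran from 0.356 to 0.425; only Aldh1a1 was left with only measured probe sets ranked, and the calls lower were 1 without control rat 2, 3 or 4. Por stood at -0.34 without control rat 4. Of 14 Nr1h3 targets 8 were measured, with a median of -0.13, and 1 of the 8 differences was positive. Rank products called Lpcat3, which builds polyunsaturated phospholipids, higher (0.30, FDR 0.00534). It called Srebf1 (-0.36, FDR 0.0107), Fasn (-0.26, FDR 0.0232) and Cyp7a1 lower. The shares called were 12.5% higher and 37.5% lower, against 8.48% and 9.94% of all measured named genes. This list, like that of Ppara, was drawn up with results of these rats known. At Lpcat3 every HP diet-fed rat lay above every control diet-fed rat, at 9.63 to 9.73 on the HP diet and 9.23 to 9.49 on the control diet (limma adjusted p = 0.217), and the limma adjusted p of the other 3 ran from 0.398 to 0.628. The difference of Srebf1 was -0.14 with control rat 3 left out, -0.54 with HP rat 4 left out and -0.66 with control rat 1 left out. That of Fasn was -0.11 with control rat 3 left out, -0.13 with HP rat 1 left out and -0.48 with control rat 1 left out. The 3 calls lower became 1 without control rat 2, 3 or 4.

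Of 24 Hnf4a targets 11 were measured, with a median of -0.023, and the only call was Cyp7a1, the rate-limiting enzyme of bile acid synthesis, lower. Cyp7a1 read 6.59, 6.69, 7.17 and 7.99 in HP rats 1 to 4, and 7.15, 7.96, 9.88 and 8.34 in control rats 1 to 4. The diets overlapped and control rat 3 was the highest. The difference was -1.22 with a standard error of 0.54 (limma adjusted p = 0.398), and -0.70 without control rat 3. The gene stands on the lists of Nr1h3, Hnf4a and Thrb alike, so that its call is counted in each of the 3.

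Of 11 Thrb targets 10 were measured and 7 were called by rank products, in opposite directions. The shares called were 30% higher and 40% lower, against 8.48% and 9.94% of all measured named genes. This list, too, was drawn up with results of these rats known. Me1, malic enzyme (0.23, FDR 0.0353), Gpd2, the mitochondrial glycerol phosphate dehydrogenase (0.21, FDR 0.0409), and Cpt1a, the gate of fatty acid entry into mitochondria (0.39, FDR 0.00477), were called higher. Thrsp, the thyroid hormone responsive Spot 14 (-0.61, FDR 0.000933), Bcl3 (-0.27, FDR 0.0203), Srebf1 and Cyp7a1 were called lower. Like Cyp7a1, Cpt1a and Srebf1 stand on other lists as well, those of Ppara and of Nr1h3, and their calls are counted again here. The list had a median of -0.042, the limma adjusted p of these genes ran from 0.320 to 0.627, and 0 higher and 2 lower calls (Thrsp and Cyp7a1) were left with only measured probe sets ranked. Gpd2 stood at 0.076 without HP rat 4 and 0.32 without control rat 1, Thrsp at -0.40 without HP rat 1 and -0.95 without control rat 1, and Bcl3 at -0.45 without HP rat 1 and -0.18 without control rat 1. The 3 calls higher became 1 without HP rat 2, 3 or 4, and the 4 calls lower became 2 without control rat 2, 3 or 4.

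Of 9 Rora targets 7 were measured, with a median of 0.020, and Nr1d1 was the only call, lower, a call kept without HP rat 3 or 4 and lost without any other rat. Of 5 Esr1 targets only Agt, angiotensinogen, was measured; it read 11.65 to 11.73 in HP diet-fed rats and 11.78 to 11.88 in control diet-fed rats, without overlap, and the difference of -0.13 passed neither test (FDR 0.0540 by rank products, limma adjusted p = 0.301). Of 9 Ahr targets 3 were measured and 0 called by either method, among them Cyp1a2 (0.099) and Nfe2l2 (0.13).

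**Figure D4:**
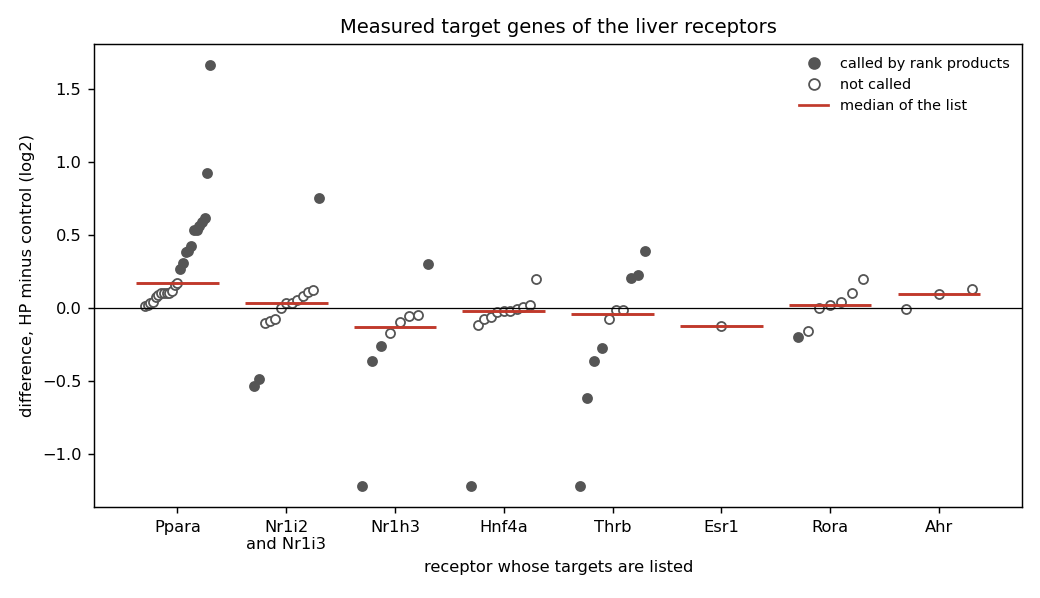
Difference HP minus control (log2, y axis) of each measured target gene by the receptor whose list it stands on (x axis); filled points were called by rank products and red lines are the medians of the lists. All 25 Ppara targets lie above 0 with a median of 0.17, and the Thrb list holds 3 calls above 0 and 4 below.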

How the data were processed

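Liver RNA of 4 HP diet-fed and 4 control diet-fed rats was hybridised to 1 Affymetrix array per rat. The deposited values are log2 values that the authors obtained by summarising the probes of each probe set with FARMS in R (version 2.13.1, per the labels); how arrays were normalized against each other is not stated in the labels or methods, and nothing was added. The table held 31099 probe sets, 57 of them controls; each array had a median of 6.65, and arrays correlated with an r of 0.968 to 0.992 over measured probe sets. Genes were named from the platform annotation by single symbols (20832 probe sets). Rank products ran over all probe sets with 16 differences, 1000 permutations within arrays and an FDR under 0.05, after the methods of the study. The linear model was that of limma (version 3.58.1, R version 4.3.3), two-sided, with a mean-variance trend, robust empirical Bayes (statmod 1.5.0) and Benjamini-Hochberg adjustment, on the 4155 probe sets spanning at least 0.05, controls left out. Both were tested on simulated data with independent noise and shifts of 1 (log2). These shifts were larger than the differences of the listed receptors, and smaller shifts were not tested. Probe sets of a gene were compared within rats by exact permutation over 70 assignments, with Python 3.11.15, numpy 2.4.6, scipy 1.17.1, pandas 2.3.3 and matplotlib 3.10.9. A gene outside the listed receptors stands at its brightest measured probe set. Named genes were the listed receptors, all list members called by either test, the 2 largest differences of a list without calls, and the 3 named genes most like each called receptor. Nr5a2 was named besides because the paper lists it. Members and lists were chosen with earlier results of these data known. Promoter windows are RefSeq's on GRCr8, matched by symbol for all 10 receptors. Alternatives were other scalings, spans, filters, variance settings, the replicate number as a block and leaving out each rat. The labels call the arrays biological replicates.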

Additional observations from a re-analysis of the deposited data

Results flagged for a closer look

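Among 88 groups of 4 rats, 18 of them at the listed receptors, 2 groups held a rat whose distance to its nearest neighbour exceeded Dixon's critical share of the range. Chance alone flags about 1 group in 20 by this measure. At Hnf4a 1382496_at, HP rat 4 read 7.86 against 7.68 in the next highest HP diet-fed rat, a gap that took up 0.881 of the range of the 4. At Nr1h3 1387365_at, HP rat 2 read 9.79 against 9.70, a gap of 0.915 of the range. The Hnf4a call of rank products is lost without HP rat 4, as given above.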

How the results depend on the processing

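The 1 receptor probe set called higher by rank products remained 1 under every alternative except that it was 0 with only measured probe sets ranked and ran from 0 to 1 with a rat left out. The 2 called lower were 0 with only measured probe sets ranked, 1 without the dimmest 25% of probe sets, and 0 to 2 with a rat left out. Ranking only the measured probe sets takes the nearly constant ones out of the ranking by construction, and over the whole array it left 25 calls higher and 16 lower. Limma called 0 receptor probe sets under each alternative run. The 1 gene whose measured probe sets all differed one way, Thrb, was 0 with arrays centred on their measured probe sets, 0 after quantile normalization, and 0 to 1 with a rat left out. The 0 pairs of probe sets past adjustment became 3 after quantile normalization and ran from 0 to 3 with a rat left out. The cause of these changes was not tested. Signs turned at Nr1i3 (-0.054 without HP rat 3, -0.039 without control rat 4, within -0.054 to 0.090 with a rat left out), at Thrb 1394456_at (0.013 centred, 0.00191 quantile normalized, 0.071 with array weights, 0.0022 without HP rat 2, 0.050 without HP rat 4, 0.062 without control rat 1 and 0.027 without control rat 4, within -0.069 to 0.062 with a rat left out), at Hnf4a 1392969_at in the mean of its gene (0.17), and without HP rat 1 at Nr0b2 (0.023, otherwise down to -0.58 without control rat 1) and Nr1d1 (0.042, otherwise down to -0.46 without HP rat 4). Over all alternatives the difference ran from 0.38 to 0.60 at Hnf4a 1382496_at for rank products (FDR 8.57e-05 to 0.161), from -0.50 to -0.25 at Thrb 1370474_at (FDR 0.00179 to 0.402) and from -0.24 to -0.15 at Rora (FDR 0.0212 to 0.828). The deviations of same-numbered rats had correlations of 0.479, 0.031, -0.123 and -0.197 for rats 1 to 4. Of the HP diet-fed rats only rat 1 correlated best with its own number. The labels do not say whether the numbers pair the rats, and these few mixed values cannot decide it. With the replicate number as a block, rank products called 434 probe sets higher and 555 lower over the array, and 1 and 2 of the receptor probe sets.

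With 4 rats per diet the 95% intervals of the receptor differences reached between 0.13 and 0.37 to either side. The 8 probe sets below the span give no measure of a difference. FARMS values carry no detection value here, the annotation does not tie a probe set to a transcript, and whole liver mixes cell types.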
